A study of Mus musculus with 24 samples.

Results

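Macrophage marker genes were followed across sorted mouse leukocytes on 24 oligonucleotide arrays. The 9 genes were Adgre1, Itgam, Csf1r, Mrc1, Msr1, Mpeg1, Cd68, Spic and Vcam1. Every probe set annotated to one of them was taken, whatever its values, which gave 16 of the 12422 probe sets tested and 9 of 8251 genes. Itgam, Mrc1 and Spic had 1 probe set each, Vcam1 had 3, and the other 5 genes had 2. Where a gene had several, the brightest on average stands for it and is meant wherever no probe set is named.

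The study compared aggressive with benign infiltrates of the pancreas, and the arrays fall into 10 groups of 5 cell populations on 2 genetic backgrounds. B6g7 mice were C57Bl/6 with the H2g7/g7 haplotype, and the other mice were NOD. Infiltrates and T cells came from mice with the BDC2.5 T cell receptor transgene, whose insulitis is labelled aggressive on B6g7 and benign on NOD. Total infiltrate (3 arrays on B6g7, 3 on NOD) was sorted from the pancreas as viable CD45+ cells, at 25, 28 and 24 days of age on B6g7 (arrays 1 to 3) and at 25 days on NOD. Pancreatic T cells (2 on B6g7, 3 on NOD) were sorted as viable CD45+ CD4+ cells with high BDC2.5 clonotype, and T cells of the pancreatic lymph node (2 on B6g7, 3 on NOD) as viable CD4+ clonotype-high cells, all at 22 to 25 days. The NK sort (2 and 2) took viable CD45+ Asialo GM1+ cells from spleen. Its B6g7 arrays came from mice without a transgene at 6 weeks (array 1) and 3 weeks (array 2), its NOD array 2 is described with BDC2.5, and no age is given for NOD. Total splenic leukocytes (2 and 2) were viable CD45+ cells and are labelled as the reference for the infiltrates, with no age and no transgene named. Whether the arrays of 1 group came from separate mice or from pools is not stated in the labels, so p-values measure the spread between these arrays, which may be technical.

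Macrophages are phagocytes that take up dying cells, microbes and debris and break them down in lysosomes. Most depend on the receptor Csf1r for survival, and tissues hold distinct kinds, of which the red pulp macrophages of the spleen clear old red cells and recycle their iron. In the diabetic pancreas macrophages are found among the leukocytes around and within the islets. The genes followed here cover surface receptors (Adgre1, an adhesion receptor; Itgam, a chain of the complement receptor Mac-1; Csf1r), uptake receptors (the mannose receptor Mrc1 and the scavenger receptor Msr1), proteins of the vesicles in which uptake ends (Cd68 and the pore-forming Mpeg1), the transcription factor Spic, needed for red pulp macrophages, and the adhesion molecule Vcam1, carried by red pulp macrophages and by activated endothelium.

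Genes of the macrophage lineage are often bound by the transcription factor PU.1, whose core motif GAGGAA was searched on both strands. Of the 9 genes, Adgre1, Msr1 and Vcam1 had no entry in the RefSeq promoter table of build GRCm38.p6, and Csf1r was left out. The other 5 fell on different sides of the pattern below, Mrc1 and Spic with the NK sort, Mpeg1 and Cd68 with the infiltrate, and Itgam with neither. The 250 bases before each of their starts are therefore shown. They are written 5′ to 3′ on the strand of the gene, with the motif, or its reverse complement, in capitals.
Mrc1 (chr2:14229164-14229413, plus strand): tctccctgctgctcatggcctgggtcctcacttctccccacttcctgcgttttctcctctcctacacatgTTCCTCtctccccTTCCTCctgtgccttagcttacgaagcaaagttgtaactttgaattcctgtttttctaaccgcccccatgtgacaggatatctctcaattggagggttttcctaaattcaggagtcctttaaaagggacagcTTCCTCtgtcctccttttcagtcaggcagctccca
Spic (chr10:88683024-88683273, minus strand): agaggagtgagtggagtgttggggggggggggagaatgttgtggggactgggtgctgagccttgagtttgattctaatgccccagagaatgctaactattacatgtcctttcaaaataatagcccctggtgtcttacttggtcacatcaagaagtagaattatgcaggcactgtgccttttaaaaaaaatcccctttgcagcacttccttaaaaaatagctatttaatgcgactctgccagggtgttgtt
Mpeg1 (chr19:12460520-12460769, plus strand): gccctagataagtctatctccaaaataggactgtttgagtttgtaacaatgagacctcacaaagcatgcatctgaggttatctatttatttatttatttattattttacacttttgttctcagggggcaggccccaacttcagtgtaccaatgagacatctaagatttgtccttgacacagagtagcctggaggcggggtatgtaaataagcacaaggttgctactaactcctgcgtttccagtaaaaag
Cd68 (chr11:69666171-69666420, minus strand): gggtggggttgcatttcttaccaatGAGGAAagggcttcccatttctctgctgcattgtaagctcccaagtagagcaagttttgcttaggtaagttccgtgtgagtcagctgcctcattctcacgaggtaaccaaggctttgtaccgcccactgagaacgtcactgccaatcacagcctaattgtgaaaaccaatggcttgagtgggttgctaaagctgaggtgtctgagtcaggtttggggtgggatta
Itgam (chr7:128062390-128062639, plus strand): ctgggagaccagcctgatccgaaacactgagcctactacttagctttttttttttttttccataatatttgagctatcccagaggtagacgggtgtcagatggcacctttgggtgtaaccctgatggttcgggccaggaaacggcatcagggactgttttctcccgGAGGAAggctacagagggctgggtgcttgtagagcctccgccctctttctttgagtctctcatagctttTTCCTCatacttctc
The motif was found in 3 of these 5 stretches and in 7639 of 32851 promoters of the same length, or 23.3%. Mrc1 held it 3 times, each on the opposite strand, the nearest 35 to 30 bases before the start. Itgam held it 2 times, 84 to 79 bases before the start on the strand of the gene and 15 to 10 bases before it on the opposite strand. Cd68 held it 1 time, 225 to 220 bases before the start, and Spic and Mpeg1 not at all in this window. A match is a description of the letters and no evidence of binding.

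In the same build the genes lie at chr2:14229414-14332023 (Mrc1), chr10:88675269-88683023 (Spic), chr19:12460770-12465285 (Mpeg1), chr11:69664213-69666170 (Cd68), chr7:128062640-128118491 (Itgam), chr17:57358581-57483529 (Adgre1), chr8:39543232-39642750 (Msr1) and chr3:116110020-116129688 (Vcam1), and Csf1r lies on chromosome 18. The probe sets that stand for the genes are 103226_at (Mrc1), 103454_at (Spic), 99071_at (Mpeg1), 103016_s_at (Cd68), 98828_at (Itgam), 103507_at (Adgre1), 94792_at (Msr1), 92558_at (Vcam1) and 104354_at (Csf1r). Their positions within the transcripts are not known here.

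Values are log2 of the deposited intensity. The median intensity of an array ran from 35.1 to 39.1, and the number of arrays limits the precision. Probe sets of transcripts that no sorted leukocyte should hold (21 probe sets of 17 genes of brain, muscle, eye, testis and similar tissues) had a median of 4.55 and a 90th percentile of 6.22, which is used here as the level of absent transcripts. It is a background over other probe sets and no detection call: where the lower of 2 group means lies at or under 6.22 the ratio is written "at least", since background in a signal shrinks a ratio, and where both do no fold is given. Each absent probe set moved across the 10 group means by a limited span (median 0.36, largest 1.18). Under the absent level, a difference within 1 probe set that is smaller than 1.18 therefore lies within the range of absent transcripts. Larger differences lie outside it. Splenic leukocytes had 1 round of RNA amplification and all other populations 2, and the 3′ minus 5′ difference of Gapdh, a sign of shorter amplified RNA, had group means of 0.22 and 0.33 in spleen, 2.96 to 3.85 in infiltrates and T cells, and 4.65 and 5.13 in the NK sort. Amplification and population cannot be told apart in comparisons with spleen. RNA length and population cannot be told apart either where the NK sort is compared with infiltrates or lymph node T cells. The summed intensity of the T cell list was 1727 to 2914 in T cell arrays against 396.3 to 1302 in the NK sort, and that of the NK list 1676 to 3367 in the NK sort against 235.1 to 436.2 in T cells, with Ncr1 and Il2rb at or under the absent level even in the NK sort. The NK list summed to 1250 to 2355 in the B6g7 infiltrates, overlapping the NK sort, and B cell markers summed to 950.4 to 1727 in the NK sort against 237.6 to 332.2 in T cells.

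The macrophage genes split into 3 patterns over the 10 groups. Mpeg1, Cd68 and Msr1 were highest in the infiltrates of both backgrounds. Vcam1, Spic and Mrc1 were highest in the NK sort of both backgrounds, while Csf1r and Adgre1 were high in both infiltrate and NK sort. Itgam varied little. The largest distance between 2 group means was 5.47 log2 units for Vcam1, 3.84 for Spic, 3.74 for Mpeg1, 3.40 for Csf1r, 2.83 for Mrc1, 2.61 for Adgre1 and Cd68, 2.56 for Msr1 and 0.45 for Itgam. Of the 16 probe sets, 9 spanned at least 1 log2 unit (56.2%), against 31.7% of all probe sets, and their median span was 2.26 against 0.66.

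**Figure D1:**
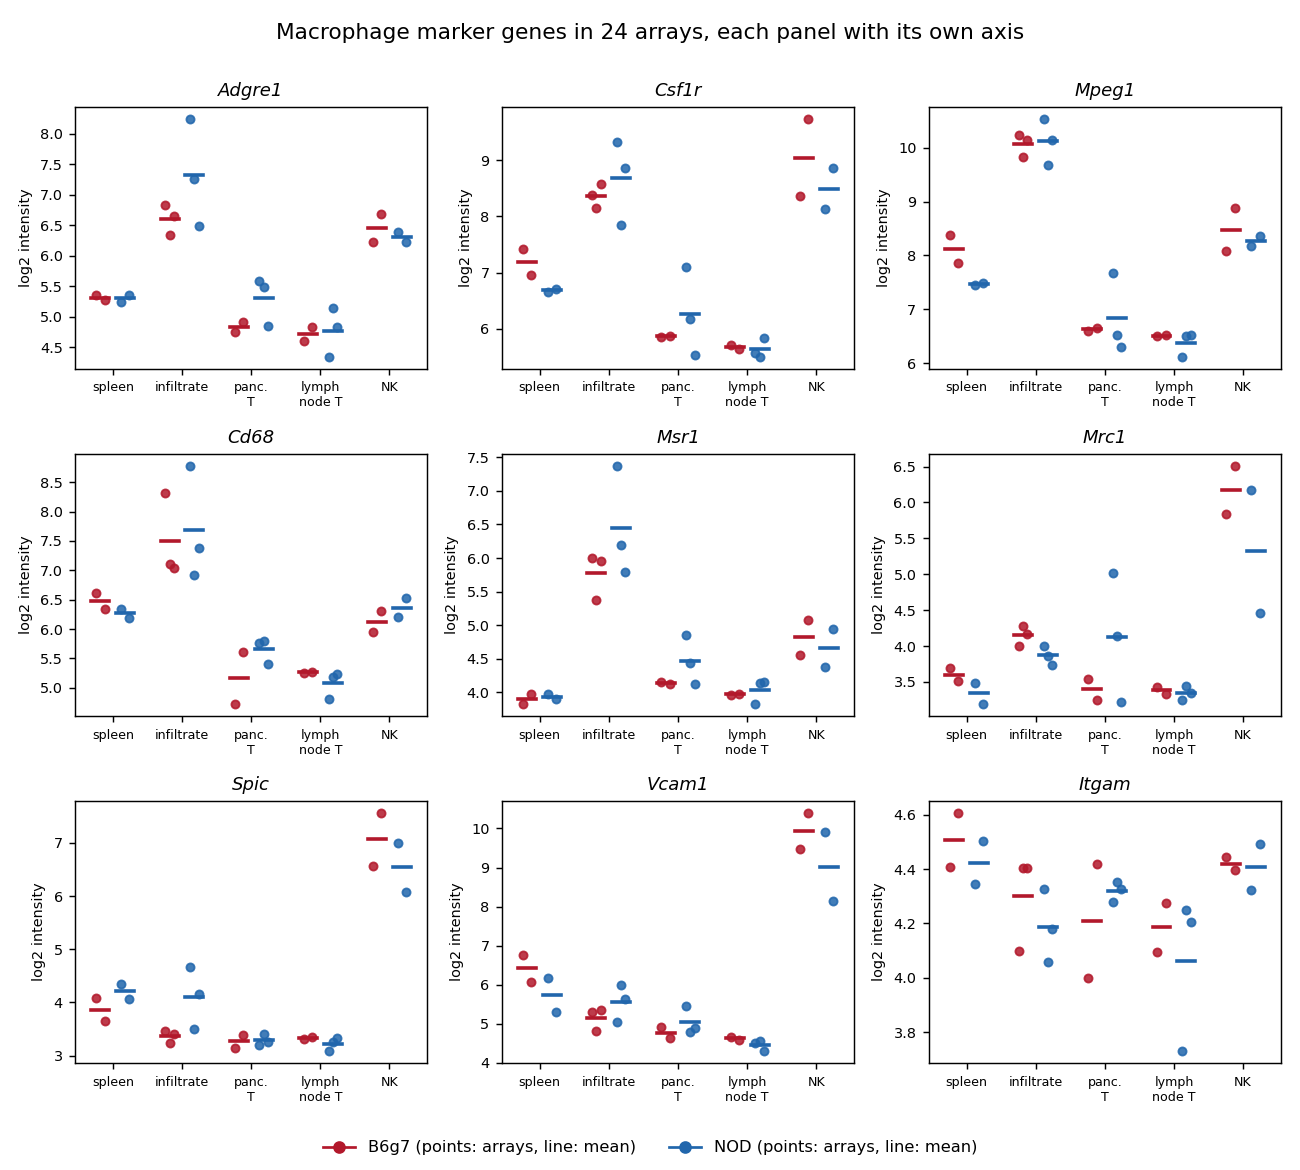
Log2 intensity of the 9 genes (1 probe set each) in 24 arrays, by population on the x axis and coloured by background, with points for arrays and lines for group means; each panel has its own y axis. Mpeg1, Cd68 and Msr1 peak in the infiltrates, Vcam1, Spic and Mrc1 in the NK sort, and Itgam stays between 3.73 and 4.61.

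Among the infiltrate genes, Mpeg1, the pore-forming protein of macrophage vesicles, stood furthest above the other populations. It read 10.25, 9.84 and 10.15 in the B6g7 infiltrates and 10.54, 9.67 and 10.14 in the NOD infiltrates. The spleen arrays read 8.39 and 7.86 on B6g7 and 7.45 and 7.49 on NOD, and the pancreatic T cells 6.60 and 6.65 on B6g7 and 7.67, 6.53 and 6.29 on NOD. Every infiltrate array was above every array of all other populations. Mpeg1 was higher in infiltrate than in spleen by 1.95 log2 units on B6g7 (SE 0.33, 3.88-fold, limma adjusted p = 0.00112) and by 2.65 on NOD (SE 0.33, 6.26-fold, adjusted p = 5.1e-05). Over pancreatic T cells it was higher by 3.45 on B6g7 (SE 0.33, 11-fold, adjusted p = 4.64e-06) and by 3.29 on NOD (SE 0.30, 9.76-fold, adjusted p = 1.74e-06).

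Csf1r, the receptor for the macrophage growth factors Csf1 and Il34, read 8.38, 8.15 and 8.58 in the B6g7 infiltrates and 9.32, 7.85 and 8.86 in the NOD infiltrates. Spleen read 7.42 and 6.96 on B6g7 and 6.66 and 6.71 on NOD, and lymph node T cells 5.50 to 5.84. The NOD infiltrates were above the NOD spleens by 2.0 (SE 0.44, 3.99-fold, adjusted p = 0.00821), whereas the difference of 1.18 on B6g7 (SE 0.44) had an adjusted p of 0.13 although the arrays did not overlap. Against pancreatic T cells Csf1r was higher by 2.5 on B6g7 (SE 0.44, at least 5.66-fold, adjusted p = 0.00288) and by 2.41 on NOD (SE 0.40, 5.31-fold, adjusted p = 0.0013). The NOD call against spleen was lost when NOD spleen array 1 or 2 was left out (adjusted p = 0.0916 and 0.0691).

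Adgre1, long used to recognise mouse macrophages, read 6.84, 6.34 and 6.65 in the B6g7 infiltrates and 8.24, 7.26 and 6.49 in the NOD infiltrates, against 5.25 to 5.35 in the 4 spleen arrays. It was higher than in spleen by 1.3 on B6g7 (SE 0.36, at least 2.46-fold, adjusted p = 0.0347) and by 2.03 on NOD (SE 0.36, at least 4.09-fold, adjusted p = 0.00138). Against pancreatic T cells it was higher by 1.78 on B6g7 (SE 0.36, at least 3.43-fold, adjusted p = 0.00882) and by 2.02 on NOD (SE 0.32, at least 4.07-fold, adjusted p = 9.22e-04). The call against spleen on B6g7 was the least firm: without B6g7 infiltrate array 1 or 3, or B6g7 spleen array 1 or 2, its adjusted p was 0.096, 0.0908, 0.179 and 0.219, and with the replicate number as a block it was 0.105.

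Cd68, a glycoprotein of lysosomal membranes, read 8.32, 7.11 and 7.04 in the B6g7 infiltrates and 8.77, 6.92 and 7.38 in the NOD infiltrates. Spleen read 6.61 and 6.35 on B6g7 and 6.35 and 6.19 on NOD, and pancreatic T cells 4.73 and 5.62 on B6g7 and 5.76, 5.80 and 5.40 on NOD. In both backgrounds 1 infiltrate array stood more than 1 log2 unit above the others of its group. Cd68 was higher than in pancreatic T cells by 2.32 on B6g7 (SE 0.43, at least 4.99-fold, adjusted p = 0.0048) and by 2.04 on NOD (SE 0.39, at least 4.11-fold, adjusted p = 0.00491). Against spleen it was higher by 1.42 on NOD (SE 0.43, 2.68-fold, adjusted p = 0.0492), and the difference of 1.01 on B6g7 had an adjusted p of 0.194. The NOD call was lost without NOD infiltrate array 1 or 3 or NOD spleen array 1 or 2 (adjusted p = 0.176, 0.0624, 0.228 and 0.25).

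Msr1, a scavenger receptor for modified lipoproteins, read 6.00, 5.38 and 5.96 in the B6g7 infiltrates and 7.37, 6.20 and 5.79 in the NOD infiltrates, against 3.83 to 3.97 in the 4 spleen arrays. Every infiltrate array was above every other array of the series. The difference from spleen was 1.88 on B6g7 (SE 0.34, adjusted p = 0.0020, both means under the absent level) and 2.52 on NOD (SE 0.34, at least 5.74-fold, adjusted p = 1.21e-04). From pancreatic T cells it was 1.65 on B6g7 (SE 0.34, adjusted p = 0.0107) and 1.98 on NOD (SE 0.31, at least 3.96-fold, adjusted p = 7.27e-04). Its second probe set, 94140_at, passed on NOD alone, higher by 0.87 against spleen (SE 0.14, adjusted p = 7.93e-04) and by 0.80 against pancreatic T cells (SE 0.13, adjusted p = 0.00102). All 10 group means of 94140_at lay under the absent level. The difference between backgrounds in its shift did not pass (adjusted p = 0.999 and 1.0 for the 2 interactions). The B6g7 call of Msr1 against pancreatic T cells was lost without B6g7 infiltrate array 1 or B6g7 pancreatic T cell array 1 or 2 (adjusted p = 0.0536, 0.137 and 0.0685).

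Counted over the 16 probe sets, 3 were higher in infiltrate than in spleen on B6g7 (Adgre1, Mpeg1 and Msr1), where 2.95% of all probe sets were. On NOD it was 6 (Adgre1, Cd68, Csf1r, Mpeg1 and both of Msr1), where 3.86% of all were. Against pancreatic T cells 5 were higher on B6g7 (Adgre1, Cd68, Csf1r, Mpeg1 and Msr1; 2.33% of all) and 6 on NOD (the same 5 genes and both probe sets of Msr1; 2.87% of all). None of the 16 was lower in infiltrate in these 4 comparisons, where 4.64%, 5.26%, 0.378% and 0.354% of all probe sets were. The arrays of the 2 groups did not overlap for any of these calls. The share of all probe sets without overlap was not counted. With 2 or 3 arrays in a group the lack of overlap is a description and no further test. The median difference over the 9 genes was 1.01 and 1.42 against spleen on B6g7 and NOD and 1.65 and 1.98 against pancreatic T cells, where the median over all probe sets lay between -0.03 and 0.06. The 4 comparisons share the infiltrate arrays. In each of them the submitters' notes name RMA normalization for all arrays of 1 group and for none of the other. This naming and the population cannot be told apart there. Without B6g7 pancreatic T cell array 1, only Mpeg1 passed on B6g7 against pancreatic T cells, and the same count of 1 followed when the B6g7 infiltrate arrays 1 and 2, which carried liver transcripts, were left out. Fitted on the 2 compared groups alone, 1 of the 6 on NOD passed, again Mpeg1. With runs of adjacent serial codes in the labels as a random block, calls were lost against spleen for Adgre1 and Msr1 on B6g7 (adjusted p = 0.237 and 0.058) and for Adgre1, Csf1r and Cd68 on NOD (0.06, 0.15 and 0.443), and against pancreatic T cells for Msr1 on B6g7 (0.0795) and Cd68 on NOD (0.106).

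**Figure D2:**
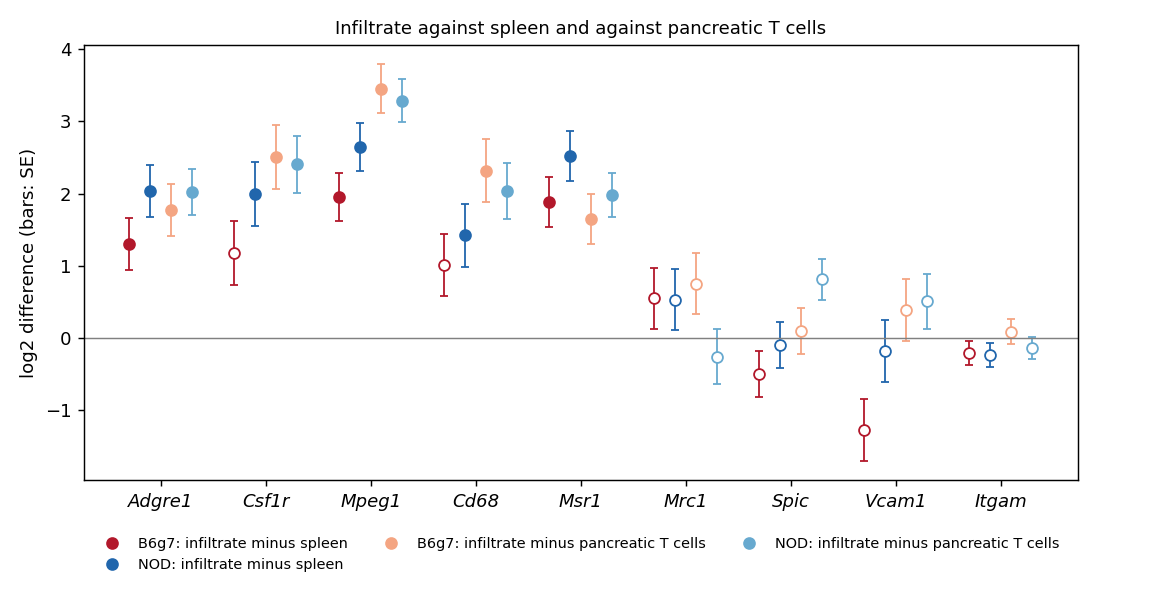
Log2 difference of the 9 genes between infiltrate and spleen and between infiltrate and pancreatic T cells, in each background; bars are the SE of the fit, and filled points passed at adjusted p under 0.05. Mpeg1 differs most, from 1.95 to 3.45, while Mrc1, Spic, Vcam1 and Itgam have open points throughout.

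In a bulk sort fewer macrophages and less RNA per macrophage cannot be told apart. The infiltrates also held fewer B cell transcripts than spleen, with a summed intensity of the 6 measured B cell markers of 2139 to 2754 against 5796 to 6637, and their part in the result was not tested. The sum of the 9 granulocyte markers was 803.9 to 1444 in infiltrates and 746.5 to 3103 in spleen, with Ltf, Mpo and Elane at or under the absent level in both. The sum of the 7 dendritic cell markers was 918.4 to 2080 in infiltrates and 1154 to 1574 in spleen, with Xcr1 at or under the absent level in all of them. Liver transcripts summed to 2300 and 1986 in B6g7 infiltrate arrays 1 and 2 against 83.8 to 94.9 in the other 4 infiltrates. NOD infiltrate array 1 was the highest array of the series for Mpeg1, Cd68, Msr1 and Adgre1. It also held the highest sum of red cell precursor markers, 14080 against 288.6 and 955.7 in NOD arrays 3 and 2. Of these markers Klf1, Epb42 and Gata1 had means at or under the absent level in the NOD infiltrates. The relation was not tested.

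The other macrophage genes did not all behave like the infiltrate members. Mrc1, Spic, Vcam1 and Itgam passed in none of the 4 infiltrate comparisons, at adjusted p from 0.0889 to 0.951. Vcam1 was lower in the B6g7 infiltrates, at 5.29, 4.82 and 5.34, than in the B6g7 spleens at 6.77 and 6.07, but the difference of -1.27 (SE 0.43) had an adjusted p of 0.0889. It passed as lower with array weights (0.00619) and in a fit of the 2 compared groups alone (0.0272). Spic read 3.23 to 3.46 in the B6g7 infiltrates and 4.67, 3.50 and 4.16 in the NOD infiltrates, against 3.65 and 4.08 in B6g7 spleen and 4.06 and 4.35 in NOD spleen. Mrc1 read 3.74 to 4.28 in the infiltrates and 3.19 to 3.69 in spleen.

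In the NK sort a different group of genes was highest. Vcam1, which binds the integrin alpha 4 beta 1 on lymphocytes and red cell precursors, read 9.46 and 10.39 on B6g7 and 9.92 and 8.13 on NOD. Spleen read 6.77 and 6.07 on B6g7 and 6.17 and 5.29 on NOD, the infiltrates 4.82 to 5.99, and lymph node T cells 4.30 to 4.67. All 4 NK arrays were above every other array, the lowest of them by more than 1 log2 unit. Vcam1 was higher in the NK sort than in spleen by 3.40 as the mean of both backgrounds (SE 0.33, at least 10.6-fold, adjusted p = 7.39e-07), and higher than in lymph node T cells by 4.93 (SE 0.32, at least 30.6-fold, adjusted p = 1.22e-08). Activated endothelium also carries Vcam1, although the CD45+ sort should leave it out. Of its 5 markers Cdh5, Kdr, Tek and Tie1 were at or under the absent level in every group, while Pecam1, which leukocytes also carry, had group means of 6.31 to 6.88. The summed intensity of the 5 was 133 to 226.8 over all arrays, with 185.2 to 203.4 in the NK sort and 151.5 to 171.6 in spleen. The part of endothelium in the Vcam1 signal was not tested.

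Spic, the transcription factor of red pulp macrophages, read 6.57 and 7.56 in the B6g7 NK sort and 7.0 and 6.07 in the NOD NK sort. Every other array lay between 3.08 and 4.67. The difference was 2.76 from spleen (SE 0.24, at least 6.79-fold, adjusted p = 2.18e-07) and 3.52 from lymph node T cells (SE 0.23, at least 11.5-fold, adjusted p = 1.7e-08). Mrc1, the mannose receptor, read 5.84 and 6.51 on B6g7 and 6.17 and 4.46 on NOD, and NOD array 2 lay below NOD pancreatic T cell array 1 at 5.02. Its difference was 2.28 from spleen (SE 0.33, adjusted p = 5.83e-05) and 2.38 from lymph node T cells (SE 0.31, adjusted p = 5.63e-05), with all group means under the absent level.

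Csf1r and Adgre1 were also raised in the NK sort. Csf1r read 8.36 and 9.73 on B6g7 and 8.12 and 8.86 on NOD, higher than in spleen by 1.83 (SE 0.34, 3.56-fold, adjusted p = 7.01e-04) and than in lymph node T cells by 3.11 (SE 0.33, at least 8.64-fold, adjusted p = 5.16e-06). Adgre1 read 6.23 and 6.69 on B6g7 and 6.39 and 6.22 on NOD, higher by 1.08 (SE 0.28, at least 2.11-fold, adjusted p = 0.0088) and by 1.64 (SE 0.27, at least 3.11-fold, adjusted p = 4.2e-04). Mpeg1 read 8.08 to 8.88, above lymph node T cells by 1.93 (SE 0.25, 3.82-fold, adjusted p = 4.22e-05) and above spleen by 0.57 (adjusted p = 0.131). Cd68 read 5.94 to 6.53, above lymph node T cells by 1.07 (at least 2.10-fold, adjusted p = 0.031) and at -0.13 from spleen (adjusted p = 0.857). Msr1 read 4.37 to 5.08, above spleen by 0.82 (adjusted p = 0.0326) and at 0.73 from lymph node T cells (adjusted p = 0.061).

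Over the 16 probe sets 7 were higher in the NK sort than in spleen (Adgre1, Csf1r, Mrc1, Msr1, Spic, Vcam1 and its probe set 92559_at; 9.68% of all probe sets were) and 8 were higher than in lymph node T cells (Adgre1, Cd68, Csf1r, Mpeg1, Mrc1, Spic, Vcam1 and 92559_at; 6.47% of all). None was lower, where 13.4% and 8.68% of all were. Both comparisons share the NK arrays. The calls of Cd68 and Msr1 rested on few arrays: Cd68 against lymph node T cells was lost without lymph node T cell array 1 or 2 of B6g7 (adjusted p = 0.0726 and 0.0823), array 1 of NOD (0.0691), NK array 1 or 2 of B6g7 (0.0528 and 0.121) or of NOD (0.054 and 0.12), and with the replicate number as a block (0.0527). Msr1 against spleen was lost without NK array 2 of B6g7 or of NOD (0.135 and 0.139), or spleen array 1 or 2 of B6g7 (0.0992 and 0.0622) or of NOD (0.0749 and 0.0824). With the serial code runs as a random block the calls against spleen of Adgre1, Csf1r, Msr1 and 92559_at (adjusted p = 0.221, 0.0725, 0.411 and 0.0674) and that of Cd68 against T cells (0.214) were lost.

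**Figure D3:**
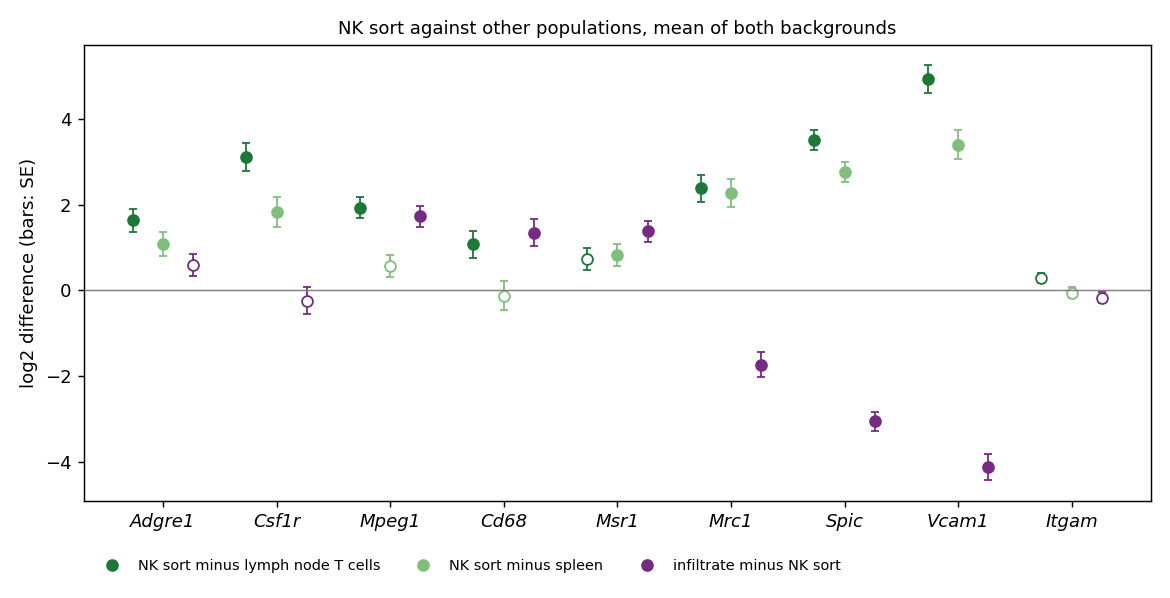
Log2 difference of the 9 genes between the NK sort and lymph node T cells, between the NK sort and spleen, and between infiltrate and NK sort, as the mean of both backgrounds; bars are the SE of the fit, and filled points passed at adjusted p under 0.05. Vcam1, Spic and Mrc1 lie above 0 for the NK sort and below 0 for infiltrate minus NK sort.

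The 4 arrays of the NK sort differed in transcripts of other cells. NOD array 2 was the lowest of the 4 for Vcam1, Spic and Mrc1, and it held the highest sums of granulocyte markers (21280, against 560.4 in NOD array 1 and 2600 and 9350 on B6g7) and of red cell precursor markers (5699, against 836.8, 1243 and 3017). B6g7 array 2 was the highest for Vcam1, Spic, Mrc1 and Csf1r, with the next highest sums. Of the 5 measured red cell precursor markers Alas2, Klf1, Epb42 and Gata1 had means at or under the absent level in both NK groups. That sum therefore rested mainly on the haemoglobin gene Hba-a1. The granulocyte markers Mpo and Elane were also at or under that level in both NK groups. The order of the 4 arrays for Vcam1 differed from that of either sum, and the relation was not tested. The sort takes Asialo GM1+ cells, and how many macrophages, granulocytes or red cell precursors each sorted sample held was not tested.

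Set against each other, infiltrate and NK sort divided the genes in both directions; this comparison was added after the levels had been seen. Mpeg1 was higher in infiltrate by 1.73 (SE 0.24, 3.31-fold, adjusted p = 1.03e-04), Msr1 by 1.38 (SE 0.24, adjusted p = 8.16e-04) and Cd68 by 1.35 (SE 0.31, 2.54-fold, adjusted p = 0.00556). Vcam1 was lower by 4.12 (difference -4.12, SE 0.30, at least 17.4-fold, adjusted p = 1.9e-07), Spic by 3.06 (difference -3.06, SE 0.22, at least 8.36-fold, adjusted p = 1.89e-07) and Mrc1 by 1.73 (difference -1.73, SE 0.30, adjusted p = 6.92e-04). With second probe sets 4 of the 16 were higher (10.6% of all probe sets were) and 4 lower (7.94% of all). Csf1r, at -0.24 (SE 0.31, adjusted p = 0.637), and Adgre1, at 0.59 (SE 0.25, adjusted p = 0.12), did not pass, and their arrays overlapped between the populations. With runs of adjacent serial codes as a random block Cd68 (adjusted p = 0.222), Msr1 (0.102), Mrc1 (0.0525), Msr1 94140_at (0.129) and Vcam1 92559_at (0.0561) lost their calls. Adgre1 passed without NOD infiltrate array 3 (adjusted p = 0.0156) and with the replicate number as a block (0.0278), although same-numbered arrays of these 2 populations did not deviate together.

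Over the 10 group means the genes of each side moved together, given here as a description since groups share arrays and processing. Pearson's r was 0.971 between Mpeg1 and Cd68, 0.869 between Mpeg1 and Msr1, 0.982 between Spic and Vcam1 and 0.912 between Mrc1 and Vcam1. Between the 3 genes highest in infiltrate and the 3 highest in the NK sort it ran from 0.102 (Msr1 and Vcam1) to 0.374 (Mrc1 and Mpeg1). Csf1r lay between, with 0.878 for Mpeg1 and 0.726 for Vcam1, and Adgre1 was nearer the infiltrate side, with 0.934 for Mpeg1 and 0.480 for Vcam1.

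The order of the groups shows which neighbours could be told apart. For Mpeg1 both infiltrates (means 10.12 on NOD and 10.08 on B6g7) overlapped each other and stood apart from the B6g7 NK sort (8.48), which overlapped the NOD NK sort (8.27) and B6g7 spleen (8.12), while NOD spleen (7.47) and the T cells (6.37 to 6.83) were lower. For Csf1r the 4 infiltrate and NK groups (8.37 to 9.04) overlapped in a row and stood apart from B6g7 spleen (7.19), NOD spleen (6.68) and the T cells (5.64 to 6.27). For Adgre1 the same 4 groups (6.30 to 7.33) overlapped in a row and stood apart from spleen and T cells (4.72 to 5.31). For Cd68 the infiltrates (7.69 and 7.49) stood apart from spleen and NK sort, which overlapped (6.12 to 6.48), and from T cells (5.08 to 5.65). For Msr1 the infiltrates (6.45 and 5.78) stood apart from the B6g7 NK sort (4.82), and all groups below it down to spleen (3.90) overlapped with their neighbours. For Vcam1 and Spic both NK groups (9.93 and 9.03, and 7.06 and 6.54) overlapped each other and stood apart from the next group, spleen, at 6.42 and 4.21. For Mrc1 the NK groups (6.17 and 5.32) stood apart from the next by mean, the B6g7 infiltrate at 4.15. They did not stand apart from NOD pancreatic T cells, which reached 5.02 where the NOD NK sort went down to 4.46.

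In the clonotype-high T cell sorts the macrophage genes were low, save for 1 array. Csf1r read 7.10 in NOD pancreatic T cell array 1 against 6.18 and 5.54 in arrays 2 and 3, Mpeg1 7.67 against 6.53 and 6.29, and Mrc1 5.02 against 4.13 and 3.22. Those values were the highest of the 10 T cell arrays. The same array held the highest sum of liver markers of the series, 17840, and a sum of the 28 phagocytosis and lysosome genes of 13300 against 2082 and 3927; the part of other cells in it was not tested. Between pancreatic and lymph node T cells no member passed in either background, where 0% of all probe sets did on B6g7 and 0.0161% on NOD, and no member had an unadjusted limma p under 0.05 (81 and 2263 of all probe sets did). Mrc1 had the largest difference, 0.78 on NOD (SE 0.38, adjusted p = 0.288), and it passed without NOD pancreatic T cell array 3 (adjusted p = 0.0283).

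Between the backgrounds no macrophage probe set passed in any population. In the infiltrate, the comparison of aggressive with benign insulitis, 34 probe sets or 0.274% of all passed and none of the 16. By unadjusted limma p under 0.05, 5 of the 16 lay lower in B6g7 (both probe sets of Adgre1 and of Msr1, and Spic), where 4.19% of all probe sets had such a p in either direction. Adgre1 was at -0.72 (SE 0.32, adjusted p = 0.999), Msr1 at -0.67 (SE 0.31, adjusted p = 0.999) and Spic at -0.74 (SE 0.28, adjusted p = 0.812). For Spic the 3 B6g7 arrays (3.23 to 3.46) lay below all 3 NOD arrays (3.50 to 4.67), all under the absent level, whereas Adgre1 and Msr1 overlapped. Mpeg1 differed by -0.04 (SE 0.30), Cd68 by -0.20 (SE 0.39), Csf1r by -0.31 (SE 0.40) and Vcam1 by -0.40 (SE 0.38). Down-weighting variable arrays made 3 pass (Adgre1, adjusted p = 0.0216, and both of Msr1, 0.033 and 0.0146); that fit gave B6g7 infiltrate array 2 a weight of 6.08, and the other 5 infiltrates 0.417 to 1.35.

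NOD infiltrate array 1 was the highest array for both Adgre1 and Msr1. Within arrays of adjacent serial codes in the labels, Adgre1 differed by -0.91 (1 B6g7 against 2 NOD arrays) and by 0.16 (1 against 1), and Msr1 by -0.78 and 0.17. Spic kept its sign, at -0.62 and -0.75. RMA normalization is named for each B6g7 infiltrate but for no NOD infiltrate, so this naming and the background cannot be told apart. The naming also splits the groups completely between backgrounds in spleen and in pancreatic T cells, and between the T cell sites of NOD.

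No member passed between backgrounds in the other populations either. In the NK sort Vcam1 differed by 0.90 (SE 0.47), Mrc1 by 0.86 (SE 0.46), Csf1r by 0.55 (SE 0.49) and Spic by 0.53 (SE 0.34), each with an adjusted p of 1.0, and 0.0483% of all probe sets passed. The other Vcam1 probe set, 92559_at, differed by 1.07 (SE 0.40, adjusted p = 1.0) and was the 1 member there with an unadjusted limma p under 0.05 (156 of all probe sets). In spleen Mpeg1 differed by 0.65 (SE 0.37) and Vcam1 by 0.69 (SE 0.47), and 0.0725% of all passed. Among pancreatic T cells Mrc1 differed by -0.73 (SE 0.42) and in lymph node T cells all 9 genes lay between -0.07 and 0.18, where 0.145% and 0.129% of all passed. No member had an unadjusted limma p under 0.05 in spleen or in either T cell sort (155, 800 and 864 of all did). Whether the rise from spleen or from pancreatic T cells to infiltrate differed between backgrounds was tested as an interaction, and no member passed (0.0403% and 0.0161% of all did; 1 member, Msr1 94140_at, had an unadjusted p under 0.05 in each, against 149 and 390 of all).

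**Figure D4:**
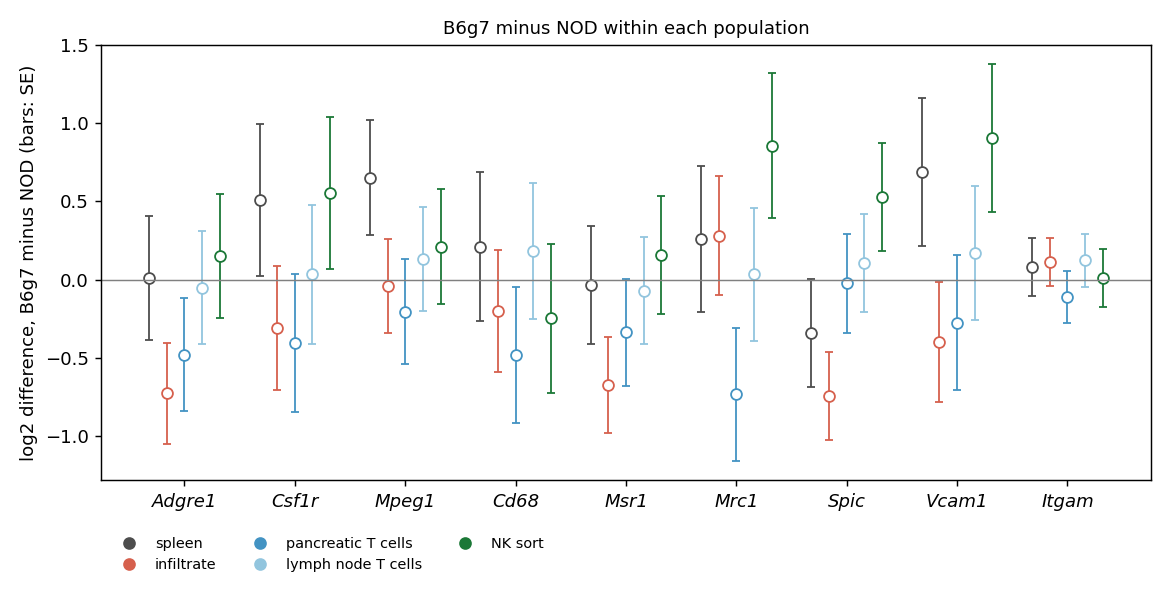
Log2 difference of B6g7 minus NOD for the 9 genes within each of the 5 populations; bars are the SE of the fit, and open points did not pass. All points are open, with the lowest at -0.74 (Spic, infiltrate) and the highest at 0.90 (Vcam1, NK sort).

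Probe sets of the same gene did not report alike. Vcam1 92558_at spanned 5.47 log2 units, 92559_at 1.96 and 92560_g_at 0.59. Probe set 92559_at was also highest in the NK sort, with 4.79 and 5.78 on B6g7 and 4.58 and 3.85 on NOD, and rose there by 1.31 against spleen (SE 0.29, adjusted p = 0.00235) and by 1.42 against lymph node T cells (SE 0.27, adjusted p = 0.00165). Outside the NK sort it read 4.83 in NOD pancreatic T cell array 2 and 3.18 to 3.98 elsewhere. The probe set 92560_g_at stayed between 4.96 and 6.15 and passed in no comparison.

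**Figure D5:**
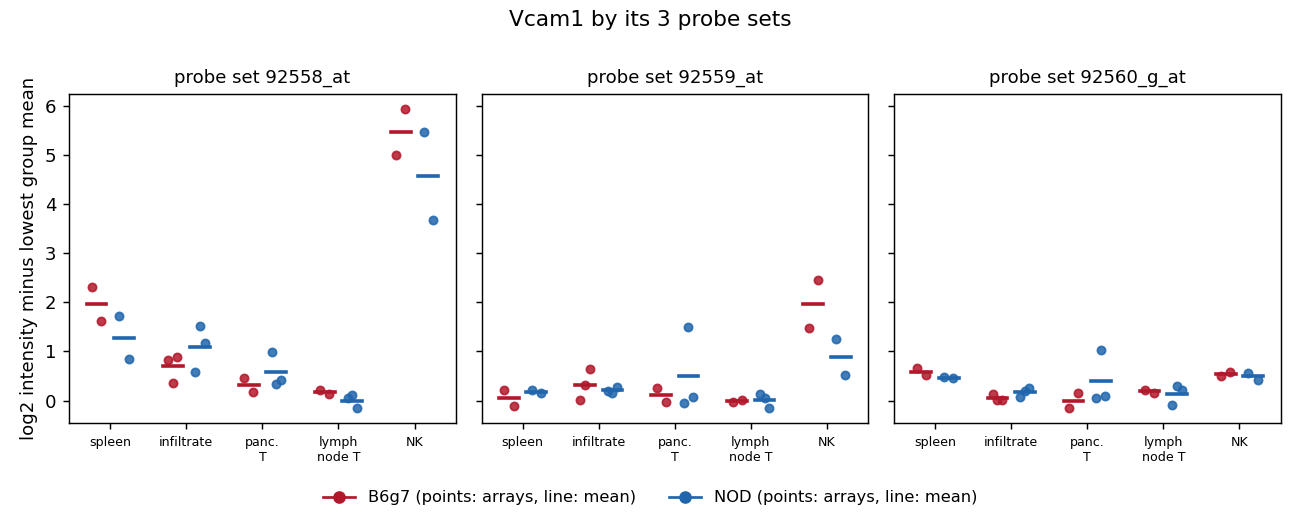
Log2 intensity of the 3 Vcam1 probe sets in 24 arrays, each as the difference from the lowest group mean of that probe set, by population and background, with points for arrays and lines for means. The NK sort stands out in 92558_at by up to 5.47 and in 92559_at by up to 1.96, and not in 92560_g_at.

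Itgam, measured by 98828_at, lay between 3.73 and 4.61 in all 24 arrays, under the absent level in all 10 groups, and passed in none of the 16 comparisons. Its group means spanned 0.45, which is within the range of the absent transcripts. The second probe sets of Adgre1, Csf1r, Mpeg1 and Cd68 likewise lay under the absent level in all 10 groups, spanned 0.53, 0.71, 0.51 and 0.31, and passed in no comparison. For these genes the account therefore rests on 1 probe set each. Msr1 94140_at and Vcam1 92559_at and 92560_g_at also lay under the absent level in all 10 groups. The span of 94140_at, 0.87, was within the range of the absent transcripts, and that of 92559_at, 1.96, was above it.

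Of 28 other genes of phagocytosis and lysosomes measured, 8 were higher and none lower in infiltrate than in pancreatic T cells on B6g7, and 7 and none on NOD, where 2.33% and 2.87% of all probe sets were higher. In the infiltrates 10 of the 28 on B6g7 and 12 on NOD had a mean at or under the absent level. Lyz2, lysozyme, was higher by 4.56 (SE 0.98, at least 23.6-fold, adjusted p = 0.0139) and 4.68 (SE 0.88, at least 25.6-fold, adjusted p = 0.00439), and Tyrobp, an adaptor of activating receptors in myeloid and NK cells, by 4.25 (at least 19.1-fold, adjusted p = 1.49e-04) and 3.96 (at least 15.6-fold, adjusted p = 7.77e-05). The list's median difference was 1.14 and 0.99, where all probe sets had -0.03 and 0.00. The third gene named by size was C1qb, a complement chain, on B6g7 (2.58, at least 5.96-fold, adjusted p = 0.0448) and Cd14, the endotoxin co-receptor, on NOD (2.53, 5.79-fold, adjusted p = 4.66e-04).

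Against spleen 1 of the 28 was higher and 2 lower on B6g7, and 6 were higher and 3 lower on NOD. Of all probe sets 2.95% were higher and 4.64% lower on B6g7, and 3.86% and 5.26% on NOD, so the B6g7 counts lie near those of all probe sets. Cd14 rose by 2.39 on NOD (SE 0.42, 5.24-fold, adjusted p = 0.00129), Lamp2, a lysosomal membrane protein, by 1.77 (at least 3.41-fold, adjusted p = 0.0339) and the metal transporter Slc11a1 by 1.76 (at least 3.38-fold, adjusted p = 0.0053), and Fcgr1, a high-affinity antibody receptor, by 1.25 on B6g7 (at least 2.38-fold, adjusted p = 0.0179). The oxidase subunits Ncf1 and Cybb fell in both backgrounds, Ncf1 with differences of -1.71 in each (adjusted p = 2.59e-05 on B6g7 and 2.39e-05 on NOD) and Cybb with -1.37 and -1.57 (adjusted p = 0.00158 and 4.12e-04), and on NOD Fcgr2b, the inhibitory antibody receptor, with -1.72 (adjusted p = 0.00277). Fcgr2b is also carried by B cells, whose summed markers are given above; their part was not tested.

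In the NK sort 5 of the 28 were higher and 3 lower than in spleen, and 12 were higher and none lower than in lymph node T cells. Of all probe sets 9.68% were higher and 13.4% lower than in spleen, and 6.47% higher and 8.68% lower than in T cells. Tyrobp rose by 2.70 (6.48-fold, adjusted p = 1.51e-04) against spleen and by 6.51 (at least 91.1-fold, adjusted p = 9.46e-09) against T cells, and Fcer1g, its relative, by 1.76 and 2.43 (adjusted p = 3.59e-05 and 1.57e-06); both are also NK cell adaptors. Axl, a receptor for dying cells, rose by 1.05 against spleen (adjusted p = 1.03e-05), and Lyz2 by 3.95 against T cells (at least 15.4-fold, adjusted p = 0.0012). Cybb, Fcgr2b and Ncf1 were lower than in spleen, by differences of -2.06, -1.89 and -1.77 (adjusted p = 3.47e-07, 2.96e-05 and 2.13e-07). Between infiltrate and NK sort 5 were higher (10.6% of all probe sets were), led by the lysosomal protein Psap (1.10, adjusted p = 0.00425), Fcgr1 (0.96, adjusted p = 0.00552) and Lamp1 (0.94, adjusted p = 0.0296), and 3 lower (7.94% of all), Tyrobp (-1.80, adjusted p = 0.00403), Fcer1g (-0.84, adjusted p = 0.0138) and Axl (-0.78, adjusted p = 2.47e-04).

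Of 14 listed genes of iron recycling and of red pulp and marginal zone macrophages, 6 were measured (Hmox1, Siglec1, Marco, Fth1, Clec4f and Cd5l). In the NK sort 1 of the 6 was higher than in spleen (9.68% of all probe sets were), Cd5l, a secreted protein of tissue macrophages (1.28, SE 0.44, adjusted p = 0.044), and 1 higher than in lymph node T cells (6.47% of all), Hmox1, which breaks down haem (0.87, SE 0.17, 1.82-fold, adjusted p = 0.00197). Hmox1 was lower in infiltrate than in the NK sort by a difference of -0.63 (adjusted p = 0.0128). None of the 6 passed in the 4 infiltrate comparisons.

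Of 8 monocyte genes measured, 4 were higher in infiltrate than in pancreatic T cells on B6g7 and 3 on NOD (2.33% and 2.87% of all probe sets were), led by Lyz2, Plac8 (3.95, 15.5-fold, adjusted p = 1.26e-07 on B6g7; 4.45, at least 21.8-fold, adjusted p = 4.51e-09 on NOD), the chitinase-like Chil3 on B6g7 (3.36, at least 10.3-fold, adjusted p = 0.0452) and Cd14 on NOD. Against spleen it was 1 and 2 (2.95% and 3.86% of all), and the summed intensity of the 8 overlapped between infiltrates (2316 to 3940) and spleen (2266 to 2527). Those that passed included Ccr2, the receptor that brings monocytes out of the marrow, at 1.73 (adjusted p = 4.6e-04) and 0.98 (adjusted p = 0.0294). In the NK sort 3 were higher and 1 lower than in spleen (9.68% and 13.4% of all), with Ccr2 at 2.33 (at least 5.02-fold, adjusted p = 2.52e-07) and Plac8 at -3.68 (12.8-fold, adjusted p = 1.02e-09), and 6 were higher than in T cells (6.47% of all). Between infiltrate and NK sort 2 were higher (10.6% of all), led by Plac8 (3.07, 8.42-fold, adjusted p = 6.59e-08), and 2 lower (7.94% of all), Ccr2 (-0.97, adjusted p = 0.00188) and Cx3cr1 (-0.42, adjusted p = 0.0156). Ccr2 was the 1 gene of all 5 lists that passed between infiltrates of the 2 backgrounds, where 0.274% of all probe sets did. It was higher in B6g7 by 1.24 (SE 0.24, at least 2.37-fold, adjusted p = 0.0321). RMA is named for the B6g7 but for no NOD infiltrates, so naming and background cannot be told apart. Ccr2 also had means of 7.88 (B6g7) and 7.09 (NOD) in the NK sort. The NK list summed to 1250 to 2355 in B6g7 and 529.8 to 1135 in NOD infiltrates, and the part of NK cells was not tested.

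Of 13 growth factor and transcription factor genes measured, 1 was lower in infiltrate than in spleen on B6g7 (4.64% of all probe sets were), Spi1, which encodes PU.1 (-0.85, SE 0.20, adjusted p = 0.0131), and none passed on NOD. Against pancreatic T cells 2 were higher on B6g7 (2.33% of all), Irf8 (2.33, 5.01-fold, adjusted p = 1.58e-04) and Cebpb (1.64, adjusted p = 0.0352), and 4 on NOD (2.87% of all), led by Klf4 (1.83, adjusted p = 0.044), Cebpb (1.6, adjusted p = 0.0179) and Csf2ra (1.11, adjusted p = 0.00548). Between backgrounds of the pancreatic T cells themselves Irf8 was lower in B6g7 (-2.13, SE 0.31, adjusted p = 0.00556) and Runx1 higher (1.41, SE 0.21, adjusted p = 0.00556). RMA is named for all NOD and no B6g7 arrays of these cells, so naming and background cannot be told apart. The NK sort was above spleen in 2 (9.68% of all), Id2 (2.42, 5.35-fold, adjusted p = 6.17e-05), a factor that NK cells need, and Klf4 (1.6, adjusted p = 0.00863), and below it in Cebpb (-1.33, adjusted p = 0.0045). Over T cells 5 were higher in the NK sort (6.47% of all) and none lower.

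Of 13 activation genes measured, 3 were higher and none lower in each of the 4 infiltrate comparisons, where 2.95%, 3.86%, 2.33% and 2.87% of all probe sets were higher. In the infiltrates 8 of the 13 on B6g7 and 10 on NOD had a mean at or under the absent level. Against spleen these were the chemokines Ccl3 (1.49, at least 2.80-fold, adjusted p = 0.00272) and Cxcl2 (0.97, adjusted p = 0.0102) and the cytokine Il10 (0.54, adjusted p = 0.0236) on B6g7, and Il1b (2.03, at least 4.07-fold, adjusted p = 0.0018), Cxcl2 (1.21, adjusted p = 0.00182) and Il10 (0.46, adjusted p = 0.0465) on NOD. With pancreatic T cells as the base they were Il1b, the costimulatory receptor Cd40 and Ccl3 on B6g7 (1.70, 1.66 and 1.44) and Cd40, Il1b and Cxcl2 on NOD (2.24, 2.22 and 1.14). Infiltrate was above the NK sort in 5 of the 13 (10.6% of all probe sets were), led by Cd40 (1.42, at least 2.68-fold, adjusted p = 1.3e-05), Il1b (1.41, at least 2.65-fold, adjusted p = 0.0013) and Cxcl2 (0.94, adjusted p = 5.2e-04).

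The genes whose 10 group means followed each member most closely were taken from the 2910 genes with a span of at least 1 log2 unit, by Pearson's r over the group means and with no p. Mpeg1 and Cd68 shared their nearest, Adssl1 (r = 0.988 and 0.983) and Myadm (0.983 and 0.978), followed by Cd300c2 (0.972) for Mpeg1 and Hk2 (0.971) for Cd68. Adgre1 was followed by Cd14 (0.971), Slc11a1 (0.967) and Rin2 (0.966), and Msr1 by App (0.985), Cpd (0.983) and Itsn1 (0.974). Csf1r was followed by Entpd1 (0.986), Gpr137b-ps (0.968) and Anxa1 (0.968). On the NK side Spic was followed by Gfi1b (0.986), Rhag (0.985) and Ank1 (0.973), Vcam1 by Klra5 (0.985), Ifitm10 (0.977) and Gfi1b (0.972), and Mrc1 by Axl (0.979), Tspan4 (0.974) and Septin10 (0.973). Gfi1b, Rhag and Ank1 are genes of red cell precursors, and Klra5 is an NK receptor gene. The red cell precursor markers Alas2, Klf1, Epb42 and Gata1 were at or under the absent level in the NK sort. Whether it held such cells was not tested.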

How the data were processed

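RNA of 24 sorted mouse leukocyte samples was measured on oligonucleotide arrays. The authors deposited linear probe set intensity, 1 column per array. The submitters' processing notes name RMA for 11 arrays (all 3 B6g7 infiltrates, 3 NOD pancreatic T cell, 3 NK and 2 NOD spleen arrays); how the other 13 were processed, and the settings, are not stated here.

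Log2 was taken without a pseudocount (lowest intensity 5.70). Of 12488 probe sets, 66 controls were left out. Symbols came from the platform annotation, updated through Entrez identifiers and RefSeq (GRCm38.p6). Means of 10 groups were fitted over all 24 arrays with limma 3.58.1 in R 4.3.3 (14 residual degrees of freedom). Each of 15 comparisons, and 1 added later, was adjusted by Benjamini-Hochberg over 12422 probe sets, two-sided, at 0.05. The fit was tested on simulated data with independent errors. That test does not cover the correlation of 0.559 found within runs of adjacent serial codes. From each list of other macrophage genes, up to 3 passing genes with the largest difference in each direction were named.

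The members and lists were chosen with earlier results of these data known. Same-numbered pancreatic and lymph node T cell arrays of NOD mice deviated together (correlations 0.342, 0.358 and 0.289). Same-numbered infiltrates of the 2 backgrounds, which come from different mice, had 0.423, 0.003 and 0.545. Such correlations therefore do not show that arrays share mice. Same numbers were treated as pairs, with the replicate number as a block, in an alternative fit of every comparison that allowed it. Same-numbered infiltrate and NK arrays did not deviate together (-0.071 and -0.033 on B6g7, -0.231 and -0.252 on NOD), so the block has no basis there. The main fit, which gave the printed results, held no block and was unpaired. The labels do not say what same-numbered arrays share. Alternatives are given below.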

Additional observations from a re-analysis of the deposited data

How the results depend on the processing

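Of the alternative values of single probe sets, 877 kept the direction and side of the threshold, 64 lost the call, 31 gained it and none reversed. With array weights 3 members passed between infiltrates of the 2 backgrounds (0 in the main analysis) and 7 between infiltrate and spleen on B6g7 (3), of which Vcam1 and its probe set 92560_g_at were lower (adjusted p = 0.00619 and 2.65e-04). With runs of adjacent serial codes as a random block (consensus correlation 0.559), 1 passed between infiltrate and spleen on B6g7, 3 on NOD (6), 3 between NK sort and spleen (7) and 3 between infiltrate and NK sort (8). Fitting only the compared groups gave 5 between infiltrate and spleen on B6g7, Vcam1 among them as lower, and 1 between infiltrate and pancreatic T cells on NOD (6). Leaving out the B6g7 infiltrates with liver transcripts gave 1 between infiltrate and pancreatic T cells (5). Without the 40% dimmest probe sets, which leaves 6 of the 16 to test, 3 passed between NK sort and spleen, 5 between NK sort and lymph node T cells (8) and 3 between infiltrate and NK sort. Leaving out 1 array at a time gave 1 to 5 between infiltrate and pancreatic T cells on B6g7 (lowest without B6g7 pancreatic T cell array 1) and 0 to 1 between the T cell sites of NOD; where a group kept 1 array, that array was assumed to vary like the other groups. With the replicate number as a block, the pairing moved no count by over 1.5 times (2 between infiltrate and spleen on B6g7, 7 between NK sort and lymph node T cells, 9 between infiltrate and NK sort); it ended the calls of Adgre1 and Cd68 named above and made Adgre1 pass between infiltrate and NK sort. Vcam1 and Spic in the NK comparisons, and Mpeg1 where it passed, kept their calls under every alternative that could test them. Signal over background limits Mrc1, Msr1 and Itgam most.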
